A study of Mus musculus with 20 samples.

Results

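Cholesterol is made in cells through a chain of enzymes, and the genes of that chain are switched by a sterol-sensing system built around the SREBP transcription factors. The 30 genes described here are 20 enzymes of cholesterol synthesis, 7 genes of the SREBP system and 3 sterol handling genes. They were taken by symbol from a table of 47729 genes, and all 30 had a row and passed the filter on low values, with at least 80 reads in every library. The study sequenced RNA from whole mouse adrenal glands in 20 libraries and asked what inactivation of the clock factor BMAL1 does in each sex. The groups were 5 control females aged 1.5 to 3.4 months, 5 Bmal1 knockout females aged 2.4 to 3.4 months, 6 control males aged 2.9 to 4.7 months and 4 Bmal1 knockout males aged 2.9 to 3.7 months. Both genotypes carry the SCC::Cre label, so controls are Cre controls. SCC refers to the side-chain cleavage enzyme, whose gene is active in the steroid-making cells of the cortex, while the medulla and stromal cells of a whole gland lack it. The sources used here give no strain, floxed allele, litter, time of day of collection or strand setting of the counting. Libraries of equal age are not said to come from separate animals, so p-values measure the spread between these samples.

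The pathway begins with acetyl-CoA, which is built into mevalonate and then into isoprenoid units. Those units are joined into farnesyl diphosphate, paired into squalene, closed into the first sterol, lanosterol, and trimmed to cholesterol. When sterols are scarce, SCAP carries the SREBP precursors from the endoplasmic reticulum to the Golgi, where the proteases of Mbtps1 and Mbtps2 release the active factors. When sterols are plentiful, the INSIG proteins hold SCAP back. Steroid-making cells of the adrenal use cholesterol as the substrate of all their hormones, and in the mouse much of it comes from plasma lipoproteins beside that made in the cell.

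Values are read counts divided by a size factor for each library, called normalised reads, and libraries held 13421985 to 26742820 reads. The targeted gene, Arntl, was at 494 to 860 normalised reads in control females and at 833 to 1010 in knockout females. It was at 365 to 1092 in control males and at 841 to 995 in knockout males, so its total level was not lower under the knockout label. The exons removed are not given, and a count over the whole gene gives no check where most of it lies outside the deleted part, so directions rest on the labels. Nr1d1, a gene driven by BMAL1, was at 1711 to 3410 in control and 160 to 414 in knockout females, and at 1091 to 2381 in control and 243 to 450.1 in knockout males. All 8 steroidogenic cortex markers and all 9 chromaffin markers of the medulla were present, with summed levels of 722753 to 1516333 and of 112950.4 to 264788. Of 5 kidney markers, 2 were at 0 in every library.

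Some libraries stood apart within their group, and this touches the results below. The control female of 3.4 months had the highest value of its group for 18 of the 20 enzymes, and so did the knockout female of 3.4 months. A control female of 1.5 months was lowest for 14 enzymes, and the knockout female of 2.7 months was lowest for 15. Among males, 1 control of 2.9 months was highest for 13 enzymes and the knockout of 3.3 months was lowest for 13. Summed over the 20 enzymes, normalised reads ran from 31659 to 84910 in control females, 53807 to 112952 in knockout females, 19166 to 39189 in control males and 14692 to 27017 in knockout males. The enzymes thus spread widely between like samples, most of all in females. Their coefficient of variation (SD over mean) had a median of 33.7% in control females and 29.5% in knockout females, against 18.1% in control and 15.3% in knockout males. For the 10 regulators and handling genes it was 14.8%, 11.8%, 14.0% and 14.7% in the same order.

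**Figure D1:**
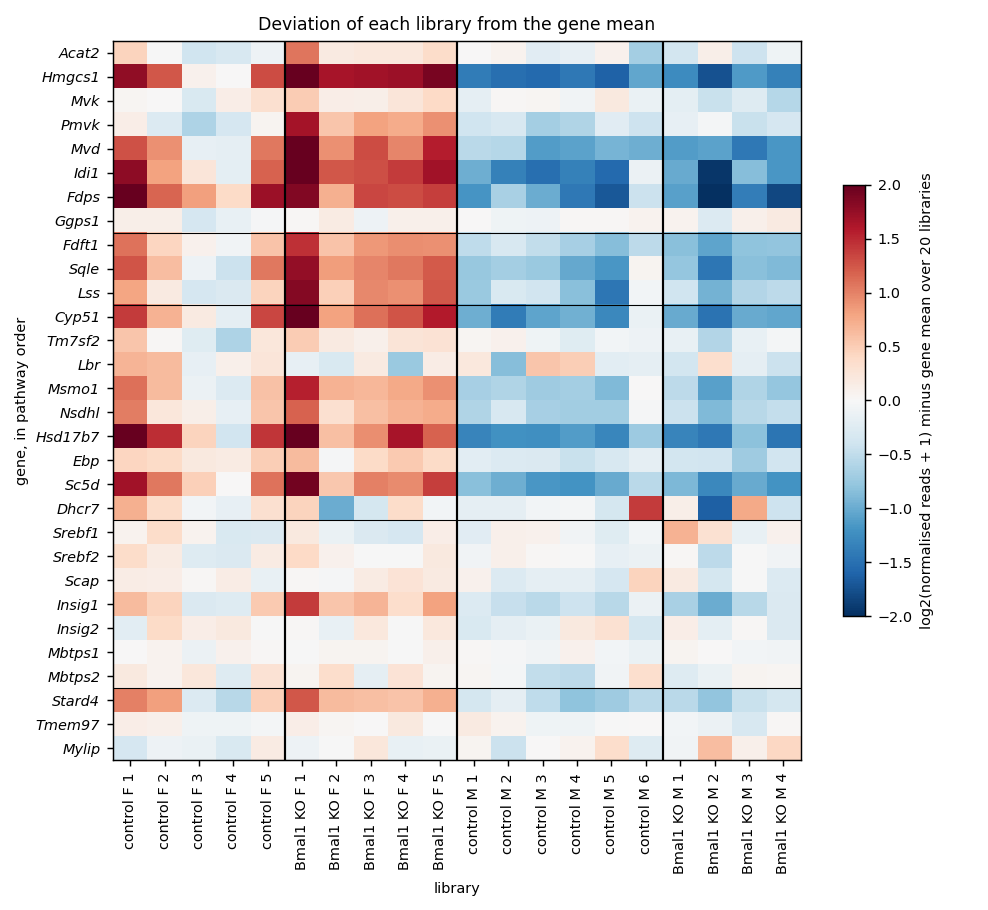
Each of the 30 genes (rows, in pathway order) in each of the 20 libraries (columns, by group), coloured by the log2 difference from the gene's mean over the libraries, with colours ending at -2 and 2. The female libraries of 3.4 months are the strongest columns for the enzymes in both genotypes, and the male columns are low for most enzymes and for Insig1.

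The widest difference within the pathway lay between the sexes. In controls, 15 of 30 genes were higher in females by limma at an adjusted p under 0.05 and 0 were lower. Over all 26612 genes tested, 13.5% were called higher in females and 12.9% lower. The 15 were 13 of the 20 enzymes plus Insig1 and Stard4. The 20 enzymes had a median log2 difference, female minus male, of 0.91, which is 1.88-fold, and all genes tested had a median of -0.05. In knockouts, 19 of 30 genes were called higher in females and 0 lower, where 12.1% of all genes were called higher and 10.6% lower. Those 19 were 17 enzymes plus the same pair, and the enzymes' median was 1.68, or 3.21-fold, beside -0.07 for all genes. Without the 2 females of 3.4 months, left out after the data were seen, 13 and 17 enzymes were called higher in females, with medians of 0.74 in controls and 1.51 in knockouts.

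The 2 sets of libraries did not touch for 7 enzymes in controls, with every female above every male, against 7.32% of all genes. In knockouts this held for 19 genes, against 11% of all genes. Acat2, Mvk, Pmvk and Tm7sf2 were called between the sexes in knockouts and not in controls. Whether the sex difference itself differed by genotype is the interaction of genotype and sex, for which limma called 0 of 30 genes (8 of 26612, 0.0301%). At an unadjusted p under 0.05 the interaction held 10 of the 30, all with a larger difference in knockouts, against 6.44% of all genes. That number was 6 with age as a covariate, 5 of them larger in knockouts, against 6.77% of all genes. Among libraries of 2.4 to 3.4 months it was 3, of which 2 were larger in knockouts, against 7.64%. Without the control female of 3.4 months it was 16, all larger in knockouts, against 6.47%. edgeR called 0 of the 30 and DESeq2 called 1, Pmvk.

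Zone markers moved with sex as well. The 4 markers of the X-zone, an inner cortical zone of the mouse adrenal that persists in virgin females and is lost in males at puberty, were all called higher in females in both genotypes. Their summed level was 37664 to 137555 in control females and 32182 to 101825 in knockout females, against 599 to 1247 in control males and 503 to 723 in knockout males. Of the 8 steroidogenic markers, 6 were called higher and 1 lower in control females than in control males, and 5 higher and 0 lower in knockouts. Of 5 lymphocyte markers, 3 were called higher in knockout females than in knockout males and 0 in controls, with summed levels of 130 to 197 and of 55.6 to 86.3 in the knockouts. Of the same 5, 3 had an unadjusted p under 0.05 for the interaction. In knockouts, 2 of 5 markers of Schwann and sustentacular cells and 2 of 6 endothelial markers were called lower in females. The part of these markers in the differences by sex was not tested. In whole glands more cells of a type and more RNA per cell cannot be told apart, and sex and X-zone content cannot be told apart in these libraries. Ages overlap only in part, and a comparison among libraries of 2.4 to 3.4 months was added after the data were seen. There, 13 genes of the pathway were called in controls and 18 in knockouts, all higher in females. Over all 25638 genes tested at those ages, 1561 were called higher and 1314 lower in control females than in control males. In knockouts 2960 were called higher and 2314 lower. The fit left out the control females of 1.5 months, the control males of 3.7 to 4.7 months and the knockout male of 3.7 months.

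**Figure D2:**
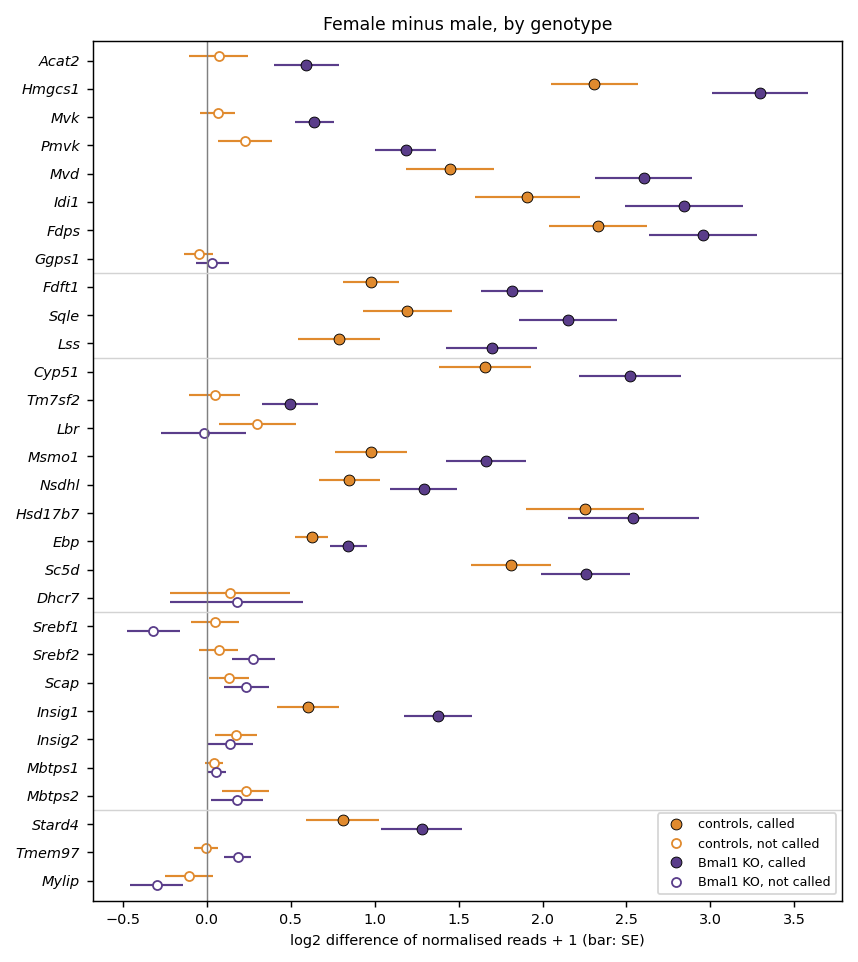
Log2 difference between females and males for each of the 30 genes, with the standard error, in controls and in knockouts, and with calls marked. Most enzymes lie to the right of 0 in both genotypes, up to 2.33 in controls and 3.30 in knockouts. The SREBP genes other than Insig1 were not called and lie closer to 0 than most enzymes.

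Stretches upstream of 5 genes are shown as examples. Hmgcs1 was taken for its sex difference in knockouts and Pmvk for its genotype difference in females. The E-box is the motif BMAL1 is known to bind. Insig1, Hsd17b7 and Sc5d are the E-box holders called higher in females, while Scap and Dhcr7 hold it and were not called by sex. The part of any motif in these differences was not tested. Sequences are from RefSeq on GRCm38.p6, run 5′ to 3′ on the gene's strand and end upstream of the annotated start. Capitals mark TCACNCCAC, a sterol response element with a free base, in Hmgcs1, the E-box CACGTG in the next 3, and CCAAT, the box bound by the SREBP partner NF-Y, in Pmvk.
Hmgcs1, chr13:119690168-119690267, plus strand: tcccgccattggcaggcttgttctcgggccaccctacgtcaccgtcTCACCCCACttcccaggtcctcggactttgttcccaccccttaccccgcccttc
Insig1, chr5:28071265-28071362, plus strand: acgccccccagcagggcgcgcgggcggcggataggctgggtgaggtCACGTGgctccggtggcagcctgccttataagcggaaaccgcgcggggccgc
Hsd17b7, chr1:169969295-169969394, minus strand: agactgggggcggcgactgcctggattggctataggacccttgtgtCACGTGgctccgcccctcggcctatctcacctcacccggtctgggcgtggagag
Sc5d, chr9:42264345-42264444, minus strand: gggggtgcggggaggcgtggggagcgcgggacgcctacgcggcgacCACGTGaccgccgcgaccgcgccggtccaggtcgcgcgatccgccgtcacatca
Pmvk, chr3:89454359-89454458, plus strand: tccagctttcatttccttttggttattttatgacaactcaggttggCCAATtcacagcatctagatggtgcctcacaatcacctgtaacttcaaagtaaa

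RefSeq windows of 250 bases before the start were used for 26 of the 30 genes and searched on both strands. For the 30 genes any window on chromosome 18, where Stard4 lies, was left out. The shares of all genes kept that chromosome. The classic sterol response element SRE-1, searched in its 10 letters, was in 0 of 26, against 0.0814% of 27025 genes, and TCACNCCAC was in 1, Hmgcs1, against 1.22%. The E-box CACGTG was in 5 of 26, or 19.2%, against 6.86% of all genes, and the holders were Hsd17b7, Insig1, Sc5d, Scap and Dhcr7. The matches of Scap and Dhcr7 lie before a RefSeq start but inside the gene by its GENCODE coordinates. CCAAT was in 22 of 26, or 84.6%, against 37.5%, and the GC box GGGCGG in 23 of 26, or 88.5%, against 35.4%. The 27025 genes were not matched to these 26 in expression or base content, so the shares do not set the pathway apart from like genes. A match describes letters in the window and not a bound site, and a window without a match says nothing of the factor. The 5 E-box genes differed in their values: Hsd17b7, Sc5d and Insig1 were called higher in females, Scap and Dhcr7 were not, and none of the 5 was called between genotypes in either sex by limma, edgeR or DESeq2.

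Between genotypes fewer genes of the pathway were called. In females, 1 of 30 genes was called higher in knockouts, Pmvk, and 0 lower, where 1.75% of all genes were called, 1.12% higher and 0.635% lower. The libraries of the 2 genotypes were apart for the same gene alone, against 1.81% of all genes with every knockout higher. At an unadjusted p under 0.05, 12 of the 30 were higher in knockout females and 0 lower, against 11.7% of all genes in either direction. Without the control females of 1.5 months that number was 8, against 10.7% of all genes. Without the knockout female of 3.4 months it was 6, against 11.2% of all genes. Among libraries of 2.4 to 3.4 months it was 6, of which 5 were higher, against 10.3% of all genes at those ages. Of the 20 enzymes, 18 had a positive log2 difference, knockout minus control, as did 49.9% of all genes, with a median of 0.42 (1.34-fold). The 10 regulators and handling genes had a median of 0.06, and all genes a median of 0.

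The count of called genes in females depended on single libraries, on the tool and on whether like-numbered libraries were blocked. The count under the block is given in the closing section. Without the control female of 3.4 months, 4 genes were called higher (Hmgcs1, Pmvk, Fdft1 and Lss). Without the females of 3.4 months of both genotypes, left out after the data were seen, 3 were called (Hmgcs1, Pmvk and Fdft1). Without control female 5, of 1.5 months, 2 were called, Pmvk and Hmgcs1, and without the knockout female of 2.7 months 2, Pmvk and Lss. DESeq2 called 3 (Hmgcs1, Pmvk and Lss) and edgeR 1, and DESeq2 also called more of all genes than limma, as given in the closing section. X-zone markers split, with Thrb called higher and Cyp2f2 lower in knockout females, and the summed cortex markers were 1157528 to 1516333 in control and 1084921 to 1348559 in knockout females. Lymphocyte markers had a positive log2 difference in knockout females for 5 of 5 genes, 3 of them at an unadjusted p under 0.05, with a median log2 difference of 0.52 and summed levels of 55.2 to 167 in control and 130 to 197 in knockout females. Red blood cell markers had a positive one for 3 of 3, 2 of them at an unadjusted p under 0.05, with a median of 0.75 and sums of 3391 to 9653 and 5697 to 11977. Adipocyte markers had a negative one for 7 of 8, and the other was positive with an unadjusted p under 0.05, with a median of -0.74 and sums of 3501 to 16017 and 4364 to 10156. limma and edgeR called 0 genes of these 3 lists, and DESeq2 called 2 lymphocyte markers, both higher in knockouts. Of 7 macrophage markers, 1, Mrc1, was called lower in knockout females by limma, edgeR and DESeq2. DESeq2 also called the cortex marker Star lower and the endothelial marker Emcn higher. Log2 differences were negative for 5 of 5 Schwann and sustentacular markers (median -0.38) and for 8 of 9 chromaffin markers (median -0.21). The part of these in the enzyme values was not tested.

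In males, limma called 0 of 30 genes between genotypes, against 1.33% of all genes (0.763% higher and 0.567% lower), and edgeR and DESeq2 also called 0. At an unadjusted p under 0.05 there was 1, Mvk, lower in knockouts, against 10.9% of all genes in either direction. Of the 20 enzymes, 16 had a negative log2 difference and 4 a positive one, where 50% of all genes had a positive one, with a median of -0.16 (0.897-fold of the control level). The enzymes' values ran from -0.57 for Fdps to 0.19 for Pmvk. Summed cortex markers were 853427 to 1303590 in control and 722753 to 1039085 in knockout males, with Star and Cyp11a1 called lower in knockouts. Of the 8 markers, 4 had a positive and 4 a negative log2 difference. An unadjusted p under 0.05 was found for 2 markers higher and 4 lower in knockouts. The part of these markers in the enzyme values was not tested.

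**Figure D3:**
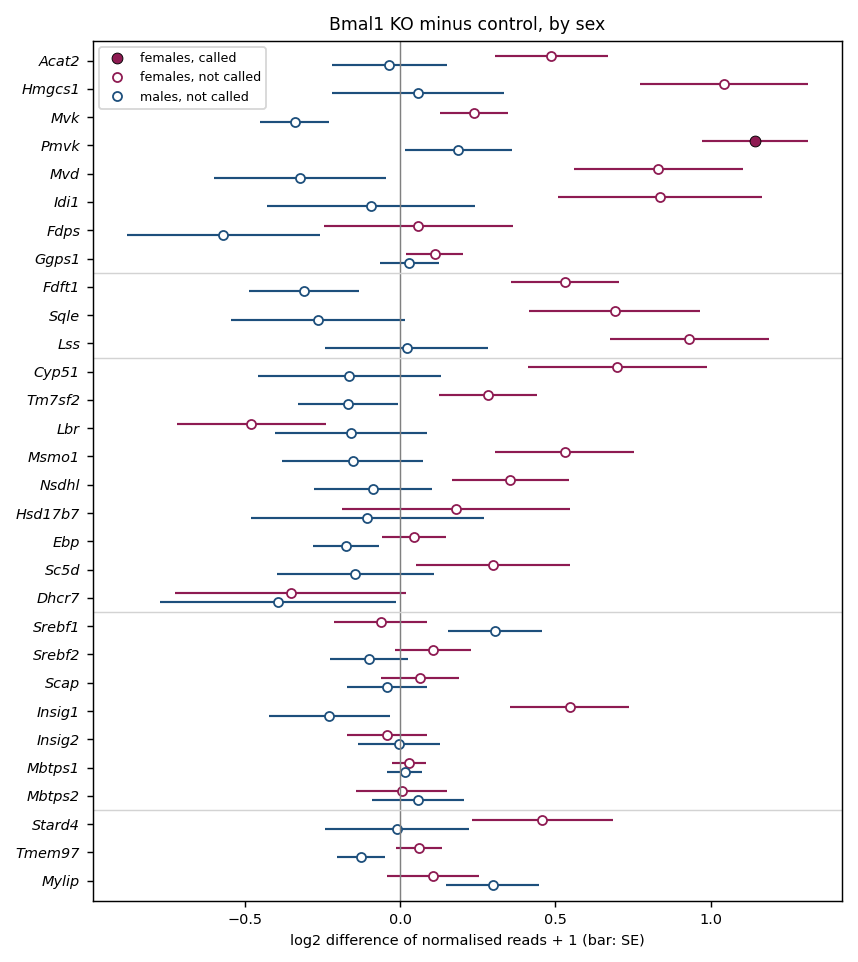
Log2 difference between knockout and control for each of the 30 genes, with the standard error, in females and in males, and with the call marked. In females 18 of 20 enzymes lie above 0 and Pmvk alone is called, and in males 16 of 20 lie below 0 with no call.

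The mevalonate steps hold 8 genes, of which 6 had an unadjusted p under 0.05 and 1 was called between genotypes in females. Of all genes, 11.7% had such a p and 1.75% were called in that comparison. Pmvk, the phosphomevalonate kinase of the middle of the chain, lies at chr3:89454541-89469013 on the plus strand on GRCm38, the build of all gene positions given here. Values are listed in the order of the replicate numbers, so the females of 3.4 months come first. Control females had 473, 355, 280, 342 and 446 normalised reads, and knockout females had 1362, 630.3, 756, 722 and 814. Control males had 269 at the lowest, 325 at the median and 369 at the highest, and knockout males had 383, 417, 315 and 342. All 5 knockout females were above all control females and above every male library, while control females overlapped the males of both genotypes. The highest knockout female was the library of 3.4 months, and the other 4 stayed above the highest control too. The log2 difference between genotypes was 1.14 ± 0.17 (adjusted p = 0.000434) in females, or 2.21-fold, and 0.19 ± 0.17 (adjusted p = 0.779) in males. It was called under every alternative run, from 0.96 without the knockout female of 3.4 months to 1.24 without the knockout female of 2.7 months. The difference between the sexes' genotype effects was 0.96 ± 0.24 (adjusted p = 0.315), so a female-biased effect was not shown by limma. DESeq2 gave 0.99 for it with an adjusted p of 0.0488.

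Hmgcs1, the cytosolic synthase that makes HMG-CoA, lies at chr13:119690379-119708260 on the plus strand. Its values in control females were 17757, 12312, 5504, 5247 and 12808 and in knockout females 33860.2, 16241, 16606, 17029 and 19405. Male controls were at 1694 at the lowest, 1875 at the median and 2535 at the highest, and male knockouts at 2173, 1562, 2379 and 2029. Every female library exceeded every male library of the same or the other genotype. Knockout females lay above 4 of the 5 control females, and the control of 3.4 months fell inside their range. The log2 difference between the sexes was 2.31 ± 0.26 (adjusted p = 1.13e-06) in controls and 3.30 ± 0.29 (adjusted p = 4.07e-08) in knockouts. Between genotypes it was 1.04 ± 0.27 (adjusted p = 0.0526) in females, just outside the threshold, and 0.06 ± 0.28 (adjusted p = 0.976) in males. Over the libraries left out one at a time, the adjusted p in females ran from 0.0101 to 0.147.

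Mvk, the mevalonate kinase, lies at chr5:114444269-114460591 on the plus strand. It had 577, 565, 456, 619 and 699 normalised reads in control females and 794, 617, 605, 667 and 736 in knockout females. Control males were at 494 at the lowest, 553 at the median and 640.3 at the highest, and knockout males at 490.2, 413, 470.3 and 379. Knockout males all lay below the lowest control male, a separation seen in 1.49% of all genes. The genotype difference in males was nevertheless -0.34 ± 0.11 (adjusted p = 0.181), which missed the threshold, and in females it was 0.24 ± 0.11 (adjusted p = 0.403). In knockouts the females were 1.56-fold higher, a log2 difference of 0.64 ± 0.12 (adjusted p = 0.000369), and in controls 0.06 ± 0.11 (adjusted p = 0.711).

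Mvd, the decarboxylase that ends the mevalonate steps proper, lies at chr8:122433601-122443422 on the minus strand. Control females had 629, 489, 230.5, 228 and 539 and knockout females 1279, 488, 641, 511 and 766. Control males had 118 at the lowest, 133 at the median and 178 at the highest, with knockout males at 119, 123, 95.6 and 115. The lowest control females stood close above the highest control male, yet no female overlapped a male. Its sex difference was 1.45 ± 0.26 (adjusted p = 0.000279) in controls and 2.60 ± 0.29 (adjusted p = 1.09e-06) in knockouts. The genotype difference was 0.83 ± 0.27 (adjusted p = 0.156) in females and -0.32 ± 0.28 (adjusted p = 0.755) in males, neither of them called.

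Idi1, the isomerase that balances the isoprenoid units, lies at chr13:8885501-8892451 on the plus strand. Its values were 7898, 3996, 2709.8, 1996 and 5189 in control females and 12017, 5394, 5616, 6027 and 7365 in knockout females. In control males they were 775 at the lowest, 897 at the median and 2097 at the highest, and in knockout males 1142, 592, 1268 and 1021. The highest control male, which also led its group for most enzymes, reached the level of the lowest control female. In knockouts the sexes were far apart. The sex difference was 1.91 ± 0.32 (adjusted p = 0.000111) in controls and 2.84 ± 0.35 (adjusted p = 4.07e-06) in knockouts, and the genotype difference 0.84 ± 0.33 (adjusted p = 0.277) in females and -0.10 ± 0.34 (adjusted p = 0.965) in males.

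Fdps, which joins the units into farnesyl diphosphate, lies at chr3:89093588-89101959 on the minus strand. It shares 26.7% of its exon bases with Gm43738 on the same strand, so its counts are uncertain. Control females had 13227, 6292, 4928, 3649 and 9163 and knockout females 10119, 4601, 7087, 6923 and 7339. Control males had 860.1 at the lowest, 1318 at the median and 2082 at the highest, and knockout males 1317, 592, 1069 and 788. Females exceeded males in every library, while the female genotypes covered the same range. The sex difference was 2.33 ± 0.29 (adjusted p = 4.47e-06) in controls, the largest among the 30 genes there, and 2.96 ± 0.32 (adjusted p = 9.17e-07) in knockouts. Between genotypes it was 0.06 ± 0.31 (adjusted p = 0.973) in females and -0.57 ± 0.31 (adjusted p = 0.539) in males.

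The other mevalonate genes were Acat2, a thiolase at the entry of the chain, and Ggps1, which makes the longer isoprenoid for protein prenylation. Acat2 averaged 1100.4 ± 269 (SD, n = 5) in control and 1555 ± 469 (SD, n = 5) in knockout females. In males it averaged 1041 ± 188 (SD, n = 6) and 1011 ± 181 (SD, n = 4). Acat3, a close relative of Acat2, is also in the table, so reads they share may be split. Acat2 was called between the sexes in knockouts and not in controls, at 0.59 ± 0.19 (adjusted p = 0.0304), and this call was lost without the knockout female of 3.4 months, the knockout male of 3.7 months or knockout male 3 (adjusted p = 0.0829, 0.0809 and 0.0978). Ggps1 stayed between 651 and 933 in all libraries and had no call in any comparison, with a sex difference of -0.05 ± 0.09 (adjusted p = 0.736) in controls.

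**Figure D4:**
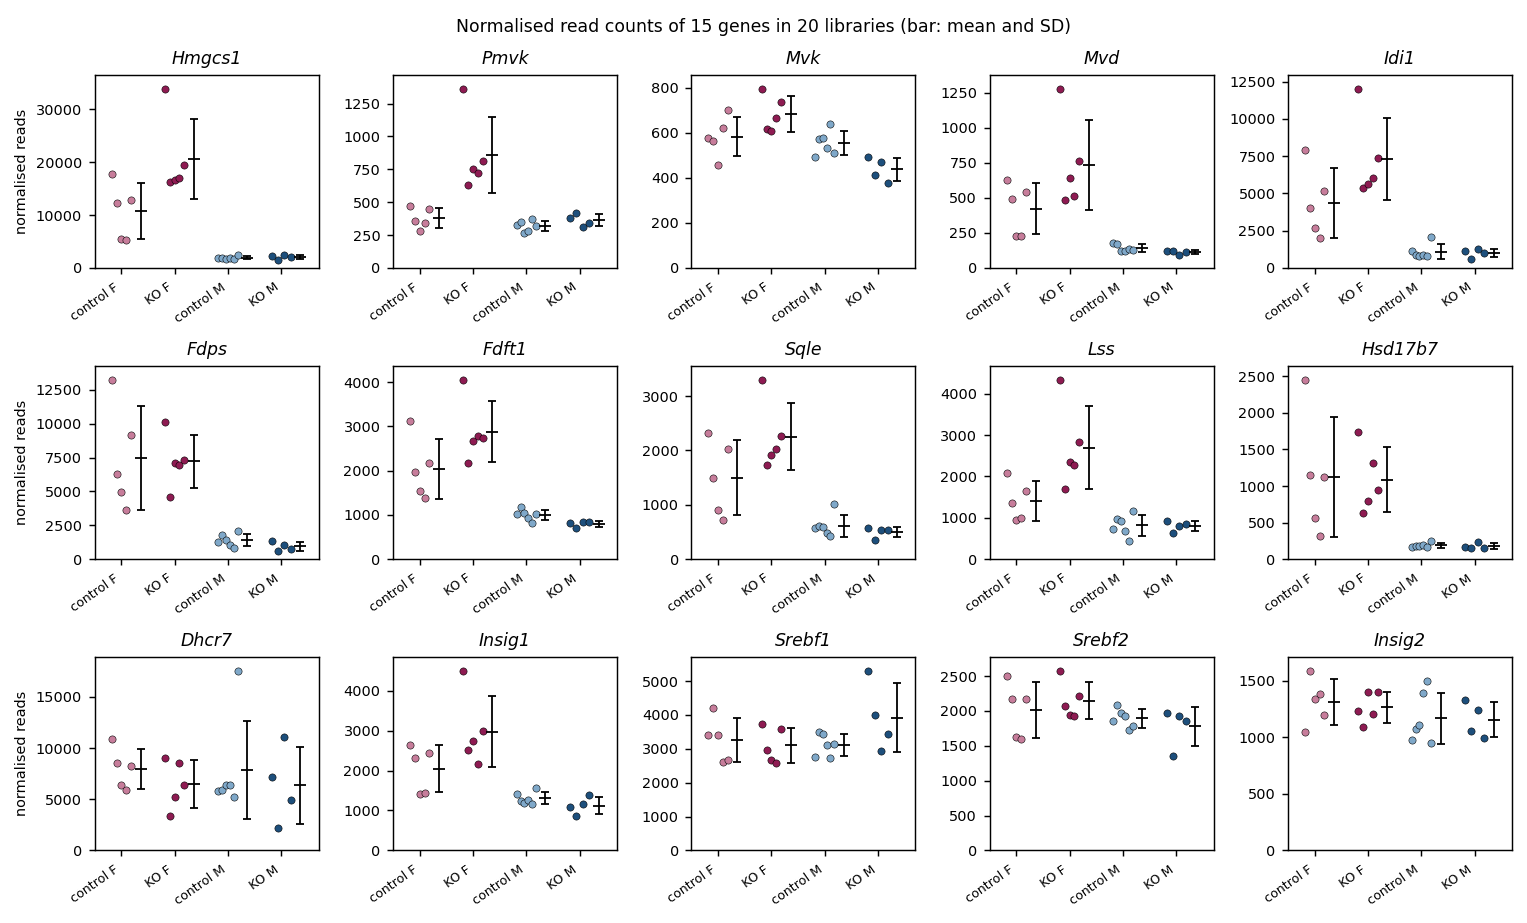
Normalised reads of selected genes in each library (points), by group, with the group mean and SD, on linear axes starting at 0. Pmvk is high in all 5 knockout females alone, Hmgcs1 is high in females of both genotypes, and Mvk is lowest in the knockout males.

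The squalene and lanosterol steps are 3 genes, all called higher in females in both genotypes and all with an unadjusted p under 0.05 between genotypes in females. Of all genes, 13.5% were called higher in females in controls and 12.1% in knockouts, and 11.7% had that p between female genotypes. Fdft1, the squalene synthase and the first enzyme committed to sterols, lies at chr14:63145150-63179578 on the minus strand and shares 18.3% of its exon bases with Ctsb on the opposite strand, so its counts are uncertain. Control females had 3114, 1963, 1543, 1392 and 2171 and knockout females 4046, 2167, 2670.2, 2791 and 2741. Control males had 806 at the lowest, 1025 at the median and 1168 at the highest, with knockout males at 815, 702, 836 and 848. No male reached a female. The sex difference was 0.98 ± 0.17 (adjusted p = 0.000155) in controls and 1.82 ± 0.18 (adjusted p = 3.27e-07) in knockouts, and the genotype difference 0.53 ± 0.17 (adjusted p = 0.156) in females and -0.31 ± 0.18 (adjusted p = 0.566) in males.

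Sqle, the squalene epoxidase, lies at chr15:59315077-59331192 on the plus strand. Its values were 2323, 1496, 908, 722 and 2019 in control females and 3294, 1733, 1915, 2035 and 2269.6 in knockout females. They were 435 at the lowest, 580.1 at the median and 1011 at the highest in control males and 571, 359, 544 and 529 in knockout males. A single control male lay inside the control female range, and the knockout sexes were apart. The sex difference was 1.19 ± 0.26 (adjusted p = 0.00183) in controls and 2.15 ± 0.29 (adjusted p = 1.51e-05) in knockouts. The genotype difference was 0.69 ± 0.28 (adjusted p = 0.287) in females and -0.26 ± 0.28 (adjusted p = 0.821) in males.

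Lss, the cyclase that closes lanosterol, lies at chr10:76531588-76557138 on the plus strand. Control females had 2087, 1366, 956, 984 and 1649.5 and knockout females 4333, 1686, 2353, 2285 and 2845. Control males had 444 at the lowest, 821 at the median and 1161 at the highest, and knockout males 916, 629.6, 808 and 842. The control sexes overlapped, and the knockout female of 3.4 months stood well above all others. The genotype difference in females was 0.93 ± 0.26 (adjusted p = 0.0745), outside the threshold, and in males 0.02 ± 0.26 (adjusted p = 0.991). The sex difference of 0.79 ± 0.25 (adjusted p = 0.0216) in controls was lost without the control female of 3.4 months, control female 5 or control male 5 (adjusted p = 0.0687, 0.0577 and 0.055). In knockouts it was 1.70 ± 0.27 (adjusted p = 0.000104).

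After lanosterol come 9 genes, of which 6 were called higher in control females than control males and 7 in knockouts, beside 13.5% and 12.1% of all genes. Between genotypes 0 were called in females or males by limma, edgeR or DESeq2. In females 2 of the 9 had an unadjusted p under 0.05 between genotypes, and in males 0, beside 11.7% and 10.9% of all genes. Hsd17b7, a ketosteroid reductase of demethylation, lies at chr1:169949535-169969241 on the minus strand and was the most variable of the 20 in control females. Control females had 2449.6, 1157, 568, 321 and 1121 and knockout females 1735, 631, 793, 1314 and 949. Control males had 166 at the lowest, 178 at the median and 251 at the highest, and knockout males 166, 154, 236 and 151. Control females spread over 7.64-fold, and even so every female exceeded every male. Its sex difference was 2.25 ± 0.35 (adjusted p = 6.03e-05) in controls and 2.54 ± 0.39 (adjusted p = 6.26e-05) in knockouts, with genotype differences of 0.18 ± 0.37 (adjusted p = 0.921) in females and -0.11 ± 0.38 (adjusted p = 0.965) in males.

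Cyp51, Msmo1, Sc5d, Nsdhl and Ebp were also called higher in females in both genotypes. Cyp51, the lanosterol demethylase, ranged over 1176 to 3517 in control females and 503 to 1212 in control males, a sex difference of 1.66 ± 0.28 (adjusted p = 0.000123), and over 2326 to 6009.6 and 477 to 662 in knockouts, 2.52 ± 0.31 (adjusted p = 3.54e-06). Msmo1, the methylsterol monooxygenase, ran over 3796 to 9825 against 2487 to 4608 in controls, 0.98 ± 0.21 (adjusted p = 0.00169), and 7286 to 13416 against 2159 to 3179 in knockouts, 1.66 ± 0.24 (adjusted p = 2.74e-05). Both overlapped in controls through the highest male library and not in knockouts. Sc5d, the desaturase of the last steps, was at 1104 to 3508 in control females and 477 to 755 in control males, 1.81 ± 0.24 (adjusted p = 8.1e-06), and the knockout difference was 2.26 ± 0.26 (adjusted p = 2.25e-06). Nsdhl, the decarboxylating dehydrogenase, gave 0.85 ± 0.18 (adjusted p = 0.00129) in controls and 1.29 ± 0.20 (adjusted p = 6.51e-05) in knockouts. Ebp, the sterol isomerase, gave a smaller but tight difference of 0.62 ± 0.10 (adjusted p = 7.62e-05) in controls, at 1122 to 1412 against 733 to 887 normalised reads, and 0.84 ± 0.11 (adjusted p = 9.67e-06) in knockouts. Nsdhl and Ebp are X-linked.

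The remaining 3 stood outside this pattern. Dhcr7, the enzyme of the final reduction, was at 5897 to 10869.7 in control females and 5173 to 17509 in control males, where 1 library at 17509 stood far above the next at 6437. Its sex difference was 0.14 ± 0.36 (adjusted p = 0.823) in controls and 0.18 ± 0.39 (adjusted p = 0.796) in knockouts. Lbr, a sterol reductase that is also a nuclear envelope receptor, gave 0.30 ± 0.23 (adjusted p = 0.373) and -0.02 ± 0.25 (adjusted p = 0.967), and its genotype difference of -0.48 ± 0.24 (adjusted p = 0.455) in females was the lowest of the 20 enzymes. Tm7sf2, the other sterol reductase of that step, was called in knockouts at 0.50 ± 0.17 (adjusted p = 0.0366) and not in controls at 0.05 ± 0.15 (adjusted p = 0.863), and the call was lost in 6 of the 9 fits that left out a knockout library (adjusted p up to 0.138). Tm7sf2 shares 12.1% of its exon bases with Vps51 on the same strand, and Lbr shares 9.24% with Dnah14 on the opposite strand. Ggps1, Cyp51, Lss and Srebf1 share smaller parts with neighbours, up to 5.44%, and the counts of all these genes are uncertain to that extent.

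Of the 7 genes of the SREBP system, 1 was called between the sexes in each genotype, Insig1, and 0 between genotypes in females or males by limma, edgeR or DESeq2. Insig1 was called higher in females, as were 13.5% of all genes in controls and 12.1% in knockouts. Srebf2, whose product drives the cholesterol genes, lies at chr15:82147181-82205379 on the plus strand. Control females had 2505, 2176, 1623, 1590.4 and 2174 and knockout females 2568, 2066, 1935, 1928 and 2221. Control males had 1725 at the lowest, 1893 at the median and 2082 at the highest, and knockout males 1968, 1356, 1929 and 1859. The control sexes overlapped, as did the female genotypes, while the knockout sexes met only between 1928 and 1968. The sex difference was 0.07 ± 0.12 (adjusted p = 0.716) in controls and 0.28 ± 0.13 (adjusted p = 0.136) in knockouts, and the genotype difference 0.10 ± 0.12 (adjusted p = 0.83) in females and -0.10 ± 0.13 (adjusted p = 0.851) in males.

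Srebf1, whose product chiefly drives fatty acid genes, lies at chr11:60199089-60222581 on the minus strand. Control females had 3396, 4210.4, 3405, 2621 and 2657 and knockout females 3724, 2978, 2657, 2580.3 and 3572. Control males had 2741 at the lowest, 3121 at the median and 3497 at the highest, and knockout males 5292, 4008, 2936 and 3442. The knockout male of 3.7 months was the highest library of all, and the groups overlapped. The genotype difference was 0.30 ± 0.15 (adjusted p = 0.485) in males and -0.06 ± 0.15 (adjusted p = 0.931) in females, and the sex difference 0.05 ± 0.14 (adjusted p = 0.843) in controls and -0.32 ± 0.16 (adjusted p = 0.159) in knockouts. Scap, the escort of both factors, lies at chr9:110333288-110384950 on the plus strand. It had 2553, 2522, 2339.8, 2549.5 and 2083 in control females and 2338, 2258, 2582, 2797 and 2604 in knockout females. Male values were 1838 at the lowest, 2041 at the median and 3132 at the highest in controls and 2619, 1799, 2299 and 1902 in knockouts. The groups overlapped here too, with differences of 0.13 ± 0.12 (adjusted p = 0.473) between control sexes and 0.06 ± 0.13 (adjusted p = 0.919) between female genotypes. Scap shares 13.2% of its exon bases with 5830462I19Rik on the opposite strand.

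Insig1, which retains SCAP and is itself a target of the SREBP factors, lies at chr5:28071363-28078662 on the plus strand. Control females had 2646, 2327, 1401, 1426 and 2446 and knockout females 4489, 2505, 2739, 2174 and 2981. Control males had 1164 at the lowest, 1259 at the median and 1567 at the highest, and knockout males 1083, 861, 1161 and 1391. The lowest control females lay within the male range, whereas every knockout female was above every knockout male. The sex difference was 0.60 ± 0.18 (adjusted p = 0.0181) in controls and 1.38 ± 0.20 (adjusted p = 3.97e-05) in knockouts. The control call was lost when any of 3 control females was left out, with adjusted p up to 0.0567. Between genotypes it gave 0.55 ± 0.19 (adjusted p = 0.198) in females and -0.23 ± 0.20 (adjusted p = 0.751) in males.

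Insig2, the partner of Insig1, which is not driven by SREBP in the same way, lies at chr1:121304353-121332589 on the minus strand. Its values were 1049.5, 1585, 1336, 1387 and 1202 in control females and 1229.6, 1093, 1405, 1203 and 1403 in knockout females. They were 952 at the lowest, 1089 at the median and 1502 at the highest in control males and 1329, 1059.9, 1238 and 994 in knockout males. No group stood out, and the sex difference was 0.18 ± 0.12 (adjusted p = 0.333) in controls and 0.14 ± 0.14 (adjusted p = 0.524) in knockouts. Of the proteases that release SREBP, Mbtps1 stayed between 2864 and 3355 in all libraries, with differences of 0.04 ± 0.05 (adjusted p = 0.595) between control sexes and 0.03 ± 0.05 (adjusted p = 0.922) between female genotypes. Mbtps2 had 574 to 837 in control females and 476 to 865 in control males, 0.23 ± 0.14 (adjusted p = 0.244), and it shares 28.4% of its exon bases with Yy2 on the same strand.

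Of the 3 sterol handling genes, Stard4 was called between the sexes. Stard4, a cytosolic carrier of sterol, averaged 982 ± 424 (SD, n = 5) in control females and 519.8 ± 83.6 (SD, n = 6) in control males, a sex difference of 0.81 ± 0.22 (adjusted p = 0.00814). In knockouts it averaged 1261 ± 272 (SD, n = 5) and 514 ± 63.5 (SD, n = 4), 1.28 ± 0.24 (adjusted p = 0.000509). Tmem97, an endoplasmic reticulum protein that responds to sterols, lies at chr11:78541817-78550777 on the minus strand. It had 957, 933, 819, 817 and 849 in control females and 947, 889, 873, 989.9 and 860.2 in knockout females. Males had 815 at the lowest, 868 at the median and 984 at the highest in controls and 838, 802, 698 and 879 in knockouts. The values were narrow and overlapped, with a sex difference of -0.0044 ± 0.07 (adjusted p = 0.975) in controls. In knockouts the sex difference was 0.18, at an unadjusted p under 0.05 by limma and not called, with females at 860.2 to 989.9 and males at 698 to 879. The genotype differences were 0.06 ± 0.08 (adjusted p = 0.846) in females and -0.13 ± 0.08 (adjusted p = 0.601) in males.

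Mylip, a ubiquitin ligase induced by the sterol receptor LXR, lies at chr13:45389742-45412022 on the plus strand and is under other control than the SREBP targets. It had 189, 224, 219, 194 and 268 normalised reads in control females and 223, 238, 279, 215 and 217 in knockout females. Males had 177 at the lowest, 245 at the median and 307 at the highest in controls and 229, 367, 255 and 318 in knockouts. The highest library was a knockout male, that of 3.3 months, which was the lowest of its group for 13 enzymes. No comparison was called, with 0.30 ± 0.15 (adjusted p = 0.496) between male genotypes, 0.11 ± 0.15 (adjusted p = 0.871) between female genotypes and -0.30 ± 0.16 (adjusted p = 0.187) between knockout sexes.

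Set per kilobase of exon, the order of the 30 genes differed by sex. In control females Hmgcs1 led with 2335 normalised reads per kilobase, ahead of Fdps at 1771, Dhcr7 at 1372 and Idi1 at 1243. In control males Dhcr7 led with 1352, ahead of Tmem97 at 638 and Srebf1 at 553, and Hmgcs1 stood at 425, the fifth. Hsd17b7 was the lowest of the 30 in males of both genotypes, at 37 and 34.6 per kilobase. Knockout females again had Hmgcs1 in the lead, at 4490.2 per kilobase, with Pmvk at 500.2 against 221 in control females. Exon length is that of all annotated exons merged, so genes with long rare exons are understated on this scale.

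Other lipid genes, listed with the members' results known, held calls by sex in both directions. Of the 63 genes of 6 lists, 20 were called higher and 7 lower in control females than in control males, or 31.7% and 11.1%, beside 13.5% and 12.9% of all genes. In knockouts 23 were higher and 7 lower, or 36.5% and 11.1%, beside 12.1% and 10.6% of all genes. Of 16 genes of SREBP1 and fatty acid synthesis, 5 were called higher and 3 lower in control females than in control males, with Gpam at 2.48 ± 0.17 (adjusted p = 7.08e-10) and Acaca at 1.35 ± 0.14 (adjusted p = 2.81e-07) against Acacb at -1.43 ± 0.10 (adjusted p = 1.89e-09) and Lpin1 at -1.07 ± 0.11 (adjusted p = 2.33e-07). In knockouts it was 7 higher and 3 lower. Of 9 genes of sterol uptake and storage, 5 were called higher and 1 lower in control females, led by Lipa, the lysosomal lipase, at 2.07 ± 0.10 (adjusted p = 4.7e-12). Of 6 further SREBP2 targets, 3 were higher and 1 lower, among them Aacs at 1.32 ± 0.18 (adjusted p = 1.19e-05) and Fabp7 at -1.28 ± 0.33 (adjusted p = 0.00607). Sterol sensing and degradation genes gave 4 higher and 1 lower of 13, genes of LXR and sterol export 2 higher and 1 lower of 8, and isoprenoid branches 1 higher and 0 lower of 11.

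In females 1 of the 63 genes was called between genotypes by limma, beside 1.75% of all genes. It was Soat1, the enzyme that esterifies cholesterol for storage, at -0.61 ± 0.12 (adjusted p = 0.0099). edgeR called 3 of the 63 in females, all lower in knockouts, and DESeq2 called 7, with 2 higher and 5 lower. DESeq2 also called more of all genes than limma in females, in males and for the interaction, with counts given in the closing section. In males limma called 4 beside 1.33% of all genes, which were Lpin1 at -0.54 ± 0.11 (adjusted p = 0.0162), Star, the carrier of cholesterol into mitochondria, at -0.69 ± 0.15 (adjusted p = 0.0238), Erlin2 at 0.23 ± 0.05 (adjusted p = 0.0369) and Abcg4 at 0.41 ± 0.10 (adjusted p = 0.0405). edgeR called 4 in males and DESeq2 7. For the interaction limma and edgeR called 0 of the 63 and DESeq2 called 2, with 12 (19%) at an unadjusted p under 0.05 by limma beside 6.44% of all genes. The median log2 difference of the uptake and storage genes was -0.13 in females and -0.11 in males, beside 0.42 and -0.16 for the 20 synthesis enzymes.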

How the data were processed

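RNA of whole adrenals from 20 libraries was measured by sequencing. The authors deposited 1 normalised signal value per gene and library. Per the submitters' processing notes, FastQC, MultiQC, featureCounts, Salmon and DESeq2 were used with mm10 and GRCm38. Tool roles and versions, aligner and strandedness were not given in the sources used here. Every positive deposited value was a whole number of reads (100%, within 0.001 of a read) divided by a DESeq2 size factor, so reads per library could be recovered. The members, gene lists and tests were chosen with earlier results of these data known.

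limma-trend (limma 3.58.1, R 4.3.3) modelled log2(value + 1) with a mean for each group. Genes needed 4 or more libraries at 1 or above, which 26612 reached. Benjamini-Hochberg adjustment ran over all genes tested, and a gene was called at an adjusted p under 0.05. Differences are log2 on that scale, which understates low genes, with the standard error (SE). Every adjusted p is limma's unless another tool is named. The fit was also run on simulated counts, with some genes changed in a knockout group. Those counts held no sex or age difference and no library shifted as a whole, so the run does not cover these features of the data. Contrasts were knockout minus control in each sex, female minus male in each genotype, and the interaction. edgeR 4.0.16 and DESeq2 1.42.0 on recovered reads, other filters, pseudocounts and TMM scaling, age as a covariate, a replicate block and libraries left out were alternatives. Like-numbered samples share a number and no stated animal, so the main fit has no block. A gene was given library by library if called between genotypes, if among the 6, 6 and 3 smallest p-values for females, males and interaction, if among the 4 largest called sex differences in either genotype, or if it was Srebf1, Srebf2, Scap, Insig1, Insig2, Hmgcs1 or Sqle; 17 genes qualified. Coordinates and exon overlaps are from GENCODE M21 and upstream sequences from RefSeq on GRCm38.p6. A depth floor was not needed, since all members had reads in all libraries.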

Additional observations from a re-analysis of the deposited data

Results flagged for a closer look

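A single library lay far from the rest of its group, by Dixon's test at its 95% critical value, in 14 of 120 combinations of gene and group (11.7%), where chance gives about 1 in 20. In the knockout female of 3.4 months the highest values of the group were those of Hmgcs1 (33860.2 normalised reads), Msmo1 (13416), Acat2 (2383), Stard4 (1741) and Pmvk (1362). In control male 6, of 2.9 months, the values far above the others were those of Dhcr7 (17509), Msmo1 (4608), Hmgcs1 (2535), Idi1 (2097), Cyp51 (1212), Sqle (1011) and Hsd17b7 (251). Cyp51 was far lowest in the knockout male of 3.3 months (477), and Ebp in knockout male 3, of 2.9 months (613). The 120 combinations share libraries and are not independent. The test was run on normalised reads without a log scale, and its 1 in 20 holds for normally distributed values.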

How the results depend on the processing

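No called difference of the 30 genes changed sign under any alternative run. Differences called in neither setting changed sign 133 times in 22 genes, such as Fdps in females from 0.06 to -0.08 and Hsd17b7 from 0.18 to -0.01 without the knockout female of 3.4 months. The number of members called between genotypes in females was 1, and it was 2 with a value of at least 10 required, 3 with DESeq2, 5 with the replicate block (Acat2, Hmgcs1, Mvd and Lss beside Pmvk), 3 without the females of 3.4 months, and 1 to 4 with single libraries left out. For the interaction it was 0, and 1 with DESeq2. With single libraries left out, males stayed at 0 to 0 and the interaction at 0 to 0, while calls by sex ran from 13 to 15 in controls and 17 to 19 in knockouts. Like-numbered females correlated at 0.01 to 0.14 and males at -0.06 to -0.0026 in their deviations. The labels state no pairs, and the main fit used none. Against knockouts, 3 of 5 control females and 0 of 4 control males correlated best with their own number. Control females also did so for 3 of 5 against control males. Females 1 and 2 had equal ages in both genotypes, 3.4 and 2.7 months. Whether the females were paired cannot be told from these values. Of single gene values, 1087 kept their side of the threshold, 18 fell short of it and 14 passed it.

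Over all genes, DESeq2 called 913 against 467 in females, 726 against 354 in males and 83 against 8 for the interaction. Males gave 195 with their own groups alone, 229 without control male 2 and 217 without knockout male 4. Females gave 264 without the controls of 1.5 months. Libraries of 2.4 to 3.4 months gave 216 in females, 81 in males and 2875 against 7023 by sex in controls, which age as a covariate took to 3746. The interaction ran from 0 to 16 with libraries left out, with 5 under the block, 1 without the females of 3.4 months, and 0 by limma with age as a covariate (1801 at an unadjusted p under 0.05) or at matched ages (1958). TMM moved the median of all genes by under 0.1. The causes were not tested. Depth did not limit the members, the least of which had 80 reads in a library.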
